A study of Mus musculus with 24 samples.

Results

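The sarcoplasmic reticulum calcium handling genes are 10 named genes of the cardiomyocyte calcium cycle, chosen by symbol for their role and not by a measured threshold: Ryr2, Itpr2, Casq2, Trdn, Jph2, Atp2a2, Pln, Sln, Slc8a1 and Camk2d. They were 10 of the 56923 gene identifiers counted in each library, and 9 of them, all but Sln, held enough reads to be tested. RNA was measured by QuantSeq 3′ sequencing in mouse heart cardiomyocyte nuclei that had been sorted on PCM1, a centriolar satellite protein that marks the cardiomyocyte nucleus. Every mouse carried 2 floxed copies of Casp2, the gene of the protease Caspase-2. The control mice, XMLC2(-)Casp2(fl/fl), had no Cre, and the Casp2-depleted mice, XMLC2(+)Casp2(fl/fl), had a Cre transgene driven by the heart-active XMLC2 promoter. Nuclei were taken on day 1 (P1), day 7 (P7) and day 14 (P14) after birth, each library from a pool of 15 hearts at P1, 6 at P7 and 2 at P14, so day and pool size cannot be told apart. There were 4 libraries in each of the 6 groups. The tests used 21 of the 24, since the authors judged 3 to be of poor quality, control replicate 1 of P1, control replicate 3 of P14 and Casp2-depleted replicate 1 of P14.

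Each heartbeat starts when calcium entering through the surface membrane opens the ryanodine receptor, and the calcium stored in the sarcoplasmic reticulum flows out to the myofilaments. Relaxation follows as a pump, SERCA, returns calcium to the store and as the sodium-calcium exchanger moves the rest out of the cell. After birth the mouse heart builds its transverse tubules and the junctions that hold the release channels beside them, and it comes to rely on stored calcium more than the newborn heart does.

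The genes with the largest fall between P7 and P14 were Casq2 and Slc8a1, and Ryr2 held the most reads, so the 250 bases before the start of their Ensembl canonical transcripts are shown, read 5′ to 3′ on the gene's strand from the GRCm39 assembly with GENCODE vM39. Capitals mark matches to the E-box letters CANNTG, searched on both strands. The Casq2 window is chr3:101992984-101993233 on the plus strand, the Slc8a1 window chr17:82045892-82046141 on the minus strand and the Ryr2 window chr13:12121871-12122120 on the minus strand, and none of the 3 overlaps an annotated exon.
Casq2: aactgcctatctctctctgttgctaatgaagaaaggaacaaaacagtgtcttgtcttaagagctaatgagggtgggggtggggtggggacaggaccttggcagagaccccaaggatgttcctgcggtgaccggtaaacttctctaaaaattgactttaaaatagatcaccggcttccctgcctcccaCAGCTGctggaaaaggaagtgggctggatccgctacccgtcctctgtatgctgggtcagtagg
Slc8a1: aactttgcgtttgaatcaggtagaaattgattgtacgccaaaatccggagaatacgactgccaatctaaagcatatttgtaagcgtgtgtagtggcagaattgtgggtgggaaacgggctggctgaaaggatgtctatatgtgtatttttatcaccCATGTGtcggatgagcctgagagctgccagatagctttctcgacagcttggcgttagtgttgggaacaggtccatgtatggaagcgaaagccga
Ryr2: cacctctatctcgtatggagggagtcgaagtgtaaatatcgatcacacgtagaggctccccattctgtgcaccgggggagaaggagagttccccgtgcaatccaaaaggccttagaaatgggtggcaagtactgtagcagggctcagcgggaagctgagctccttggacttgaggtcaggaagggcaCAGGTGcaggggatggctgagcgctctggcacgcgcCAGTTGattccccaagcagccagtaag
An E-box lay in this window in 7 of the 10 genes and in 64.8% of the 21770 protein-coding promoters searched. The TATA box letters TATAAA were found in 3 of the 10, Pln, Sln and Trdn, and in 11.9% of all promoters. The GATA motif AGATAA, the MCAT element CATTCC and the MEF2 motif were in none of the 10 windows, against 9.60%, 12.1% and 3.32% of all promoters. The GC content of the windows ran from 28.8% for Trdn to 78.0% for Atp2a2, around a median of 54.0%, close to the 53.2% median of all promoters.

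The 21 libraries held 891817 to 2924097 reads on genes. Genes with a read numbered 10981 to 15268 at P1, 14006 to 17770 at P7 and 7628 to 13651 at P14. Reads that fell on no gene made up 34.3 to 64.3% of the uniquely placed reads at P7, 36.8 to 73.9% at P1 and 63.7 to 76.1% at P14. Casp2, the targeted gene, had 9 reads over the 4 P7 control libraries, 8 over the 4 P7 Casp2-depleted libraries and none at P1 or P14, so its depletion could not be checked here. The cell type label was checked on 5 cardiomyocyte markers, Tnnt2, Myh6, Actn2, Ttn and Myl2, all of which were read in every group and together made up 7683 to 63462 CPM (counts scaled to a common library size, as given below). Summed levels over the 21 libraries were 0 to 256 CPM for 5 atrial markers, of which Bmp10 was at 0 throughout, 4.10 to 205 CPM for 5 fibroblast markers, 50.0 to 1052 CPM for 5 endothelial markers, 65.7 to 488 CPM for 5 mural cell markers, 42.0 to 303 CPM for 5 macrophage markers, of which Cd68 was at 0, and 0 to 110 CPM for 4 erythroid markers.

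Together the 10 genes took 1.31 to 2.54% of the reads on genes at P1, 1.70 to 2.62% at P7 and 0.659 to 1.93% at P14. Ryr2 alone made up 42.3 to 69.7% of these reads, with a median of 59.4%. Levels are given below as CPM scaled by the trimmed mean of M values (TMM), and changes as log2 fold changes with their standard error (SE). A gene was called when its Benjamini-Hochberg adjusted p over all 20368 genes tested was below 0.05 and its log2 fold change was beyond 1 in size. Levels of different genes were set side by side only per kilobase of gene, and since the kit reads mainly the 3′ side of transcripts, that order is a description. On this scale Ryr2 stood first on each day, with a mean of 19.4 CPM per kb ± 8.31 (SD, n = 7) at P1, 29.2 ± 11.3 (n = 8) at P7 and 9.65 ± 6.47 (n = 6) at P14. Slc8a1 was the second in order at P1 and P7, with means of 13.3 and 15.1 CPM per kb, but the fourth at P14 with 2.43. Itpr2 and Camk2d stood last of the 9 tested genes on each day, between 0.410 and 2.42 CPM per kb. Neighbours in the order overlapped in their library values on every day, except that Sln lay below all the others.

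**Figure D1:**
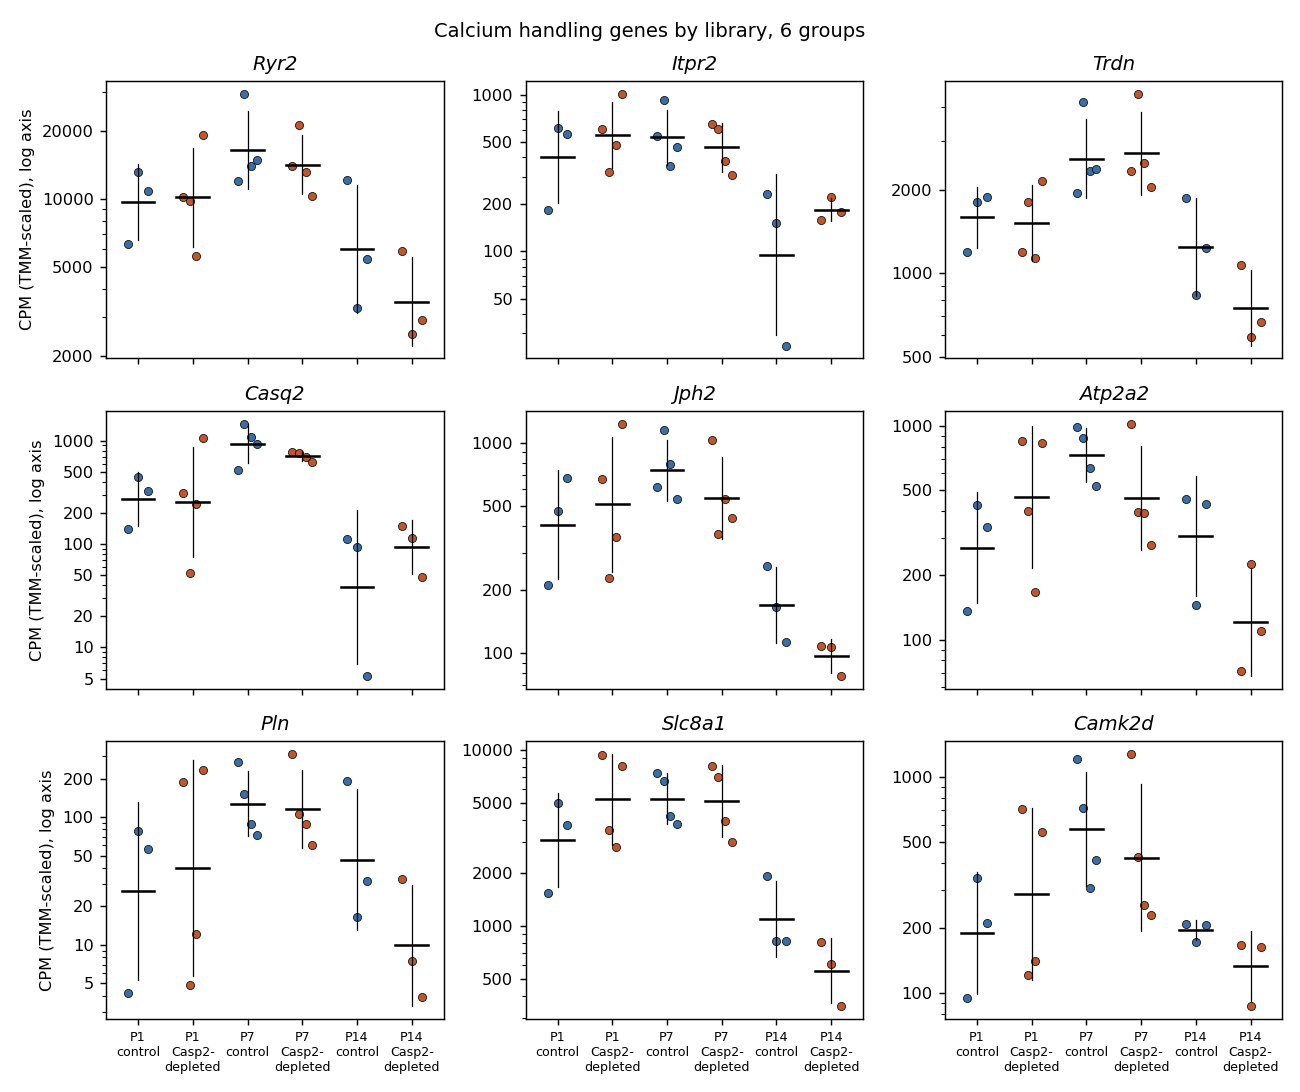
CPM on a log axis for the 9 tested genes, 1 point per library, for the 6 groups (blue, control; rust, Casp2-depleted). Horizontal lines are geometric means and vertical lines 1 SD on the log2 scale. In 6 of the 9 genes every P14 library sits below every P7 library.

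All 9 tested genes fell from P7 to P14 with both genotypes combined. Their log2 fold changes ran from -3.30 for Casq2 to -1.46 for Trdn, with a median of -1.86, where the median of all genes tested was -0.87. Of all genes tested, 8.66% were called lower in this comparison, and of the 2980 genes with a mean of at least 100 reads, a set that includes the 9, 26.4% were called lower. Those 2980 genes had a median log2 fold change of -0.65, and all 9 lay below it. For 6 of the 9, every P14 library was below every P7 library, which was so for 3.81% of all genes. In bulk libraries such as these, fewer nuclei of a type and less RNA per nucleus cannot be told apart. The summed cardiomyocyte markers, here scaled by reads on genes alone, without TMM, moved the same way. They were at 34170 to 63462 CPM at P7 and 7683 to 30070 CPM at P14. Endothelial markers on that scale were at 104 to 314 CPM at P7, 50.0 to 1052 CPM in P14 controls and 444 to 587 CPM in P14 Casp2-depleted libraries. The last range came from 3 of the 5 markers, since Kdr and Cdh5 were at 0 there. Mural cell markers were at 219 to 427 CPM at P7 and 65.7 to 408 CPM at P14. Fibroblast markers were at 18.6 to 105 CPM and 5.12 to 195 CPM, and macrophage markers at 42.0 to 233 CPM and 44.9 to 303 CPM, on the same days. The part of these in the fall was not tested.

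The scaling sets how much of this fall is seen. The TMM factors were 0.575 to 0.983 at P7 and 1.11 to 1.57 at P14. With these factors the typical gene was not level between the 2 days but lower at P14, at -0.87 over all genes tested. Scaled by reads on genes alone, without TMM, the 9 genes still all had negative log2 fold changes, from -2.56 to -0.66 with a median of -1.04, but only Casq2, Slc8a1 and Jph2 were called, against 3.52% of all genes. The median of all genes was then -0.17, and the genes called from the whole table split into 447 higher and 717 lower, where TMM gave 53 higher and 1764 lower. With all 24 libraries in the fit, Casq2, Slc8a1, Jph2 and Camk2d were called, against 9.30% of all genes. The P14 libraries added there had 0 (control replicate 3) and 6.94 CPM (Casp2-depleted replicate 1) of Camk2d, scaled by reads on genes alone.

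Ryr2, on chromosome 13 at 11567988 to 12121870 in GRCm39, encodes the ryanodine receptor, the main release channel of the heart's sarcoplasmic reticulum. It was at 6293, 13248 and 10908 CPM in the P1 controls and 10162, 9802, 5578 and 19285 CPM in the P1 Casp2-depleted libraries. At P7 it was at 12058, 29439, 13981 and 14994 CPM in controls and 14080, 21369, 13241 and 10268 CPM in Casp2-depleted libraries. At P14 it was at 12108, 3288 and 5407 CPM in controls and 5860, 2523 and 2895 CPM in Casp2-depleted libraries. One P14 control library, replicate 1, thus lay within the P7 range, and the other 5 P14 libraries lay below it. The log2 fold change from P7 to P14 was -1.66 (SE 0.22, adjusted p = 1.7e-11), or -0.88 (adjusted p = 0.00011, not called for its size) without TMM. Its direction turned under limma-voom with quantile scaling (0.31 with both genotypes and 0.66 in controls, neither called). With both genotypes, the P7 to P14 call was kept in 9 of 14 alternative fits. It was lost without TMM, under either limma-voom scaling, with all 24 libraries and when the no-gene reads entered the fit. From P1 to P14 the log2 fold change was -1.06 (SE 0.22, adjusted p = 0.00020), a call kept in 6 of 14 alternative fits. It was lost without TMM (-0.66, adjusted p = 0.023), with DESeq2, under either limma-voom scaling and with all 24 libraries. It was also lost with filterByExpr, with no filter and when the no-gene reads entered the fit. Leaving out any 1 of 7 libraries lost it too, with values of -1.40 to -0.78 over all omissions. These were P1 control replicate 3, P1 Casp2-depleted replicates 1 and 4, P14 control replicates 2 and 4, and P14 Casp2-depleted replicates 3 and 4.

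Itpr2 encodes the inositol trisphosphate receptor type found in cardiomyocytes, a release channel set mainly around the nucleus. It was at 183 to 1020 CPM at P1, 309 to 922 CPM at P7 and 25.0 to 232 CPM at P14, so no P14 library reached the P7 range. Its log2 fold change from P7 to P14 was -1.72 (SE 0.38, adjusted p = 0.00025), and from P1 to P14 -1.72 (SE 0.38, adjusted p = 0.00085). The lowest value, 25.0 CPM, came from P14 control replicate 4, which was also the lowest library for Casq2. That library had 7628 detected genes, the fewest of the 21.

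Casq2, on chromosome 3 at 101993234 to 102056307, encodes cardiac calsequestrin, which binds calcium inside the store and lies next to the release channel. It was at 139, 444 and 323 CPM in the P1 controls and 309, 52.5, 246 and 1057 CPM in the P1 Casp2-depleted libraries. At P7 it was at 525, 1454, 1078 and 931 CPM in controls and 783, 760, 693 and 622 CPM in Casp2-depleted libraries. At P14 it was at 113, 93.5 and 5.30 CPM in controls and 150, 115 and 47.7 CPM in Casp2-depleted libraries. The P7 and P14 values did not overlap, and the P1 values spanned the gap between them. The fall from P7 to P14 was 9.84-fold, a log2 fold change of -3.30 (SE 0.40, adjusted p = 1.5e-13). Casq2 was the one gene of the 9 that stayed called in all 14 alternative fits, with log2 fold changes of -3.68 to -2.14.

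Trdn encodes triadin, which anchors calsequestrin to the ryanodine receptor. It was at 1133 to 2156 CPM at P1, 1957 to 4469 CPM at P7 and 590 to 1877 CPM at P14, and its fall from P7 to P14 was the smallest of the 9, with a log2 fold change of -1.46 (SE 0.28, adjusted p = 1.4e-05). Without TMM it was -0.66 (SE 0.25, adjusted p = 0.083) and was not called. Against P1, Trdn at P14 was not called (log2 fold change -0.66, SE 0.28, adjusted p = 0.14).

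Jph2 encodes junctophilin 2, which ties the transverse tubule to the sarcoplasmic reticulum. It was at 211, 476 and 677 CPM in the P1 controls and 672, 227, 358 and 1232 CPM in the P1 Casp2-depleted libraries. At P7 it was at 614, 1146, 797 and 537 CPM in controls and 1033, 368, 540 and 439 CPM in Casp2-depleted libraries. At P14 it was at 258, 165 and 113 CPM in controls and 108.2, 106.8 and 77.7 CPM in Casp2-depleted libraries. All 6 P14 libraries were below all 8 P7 libraries, and the log2 fold change was -2.36 (SE 0.38, adjusted p = 5.9e-08). From P1 to P14 it was -2.01 (SE 0.38, adjusted p = 2.4e-05).

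Atp2a2 encodes SERCA2, the calcium pump that refills the store. It was at 137 to 848 CPM at P1, 278 to 1024 CPM at P7 and 71.7 to 456 CPM at P14. The P7 and P14 ranges overlapped, and the log2 fold change was -1.54 (SE 0.37, adjusted p = 0.0011), or -0.70 (adjusted p = 0.17, not called) without TMM. Pln encodes phospholamban, the brake on this pump. It was at 4.20 to 233 CPM at P1, 61.0 to 312 CPM at P7 and 3.92 to 193 CPM at P14, the widest spread within a day of the 9 genes at P1 and P14. Its log2 fold change from P7 to P14 was -2.05 (SE 0.63, adjusted p = 0.020), and the call was lost on leaving out any 1 of 8 single libraries, with values of -2.92 to -1.60. Pln lies inside Cep85l on the opposite strand. Of the protein-coding genes that lie inside another one, 66.5% of the 508 on the host's opposite strand and 4.95% of the 323 on its own strand had reads, a difference that strand-aware counting gives and unstranded counting does not. Sln encodes sarcolipin, another regulator of the pump and a gene of atrial muscle. It had 17 reads in P7 control replicate 4, 1 read in P7 Casp2-depleted replicate 1 and 0 in the other 19 libraries. A count of 0 allows up to 1.03 to 3.36 CPM, depending on the depth of the library. Sln therefore stayed out of the fit, and no change in it was detectable at this depth. With all 24 libraries it entered the fit and was not called (adjusted p = 0.12 for P14 against P7). Set against Atp2a2 within libraries, where 19 of the 21 ratios were 0, none of its 3 differences between days passed an exact permutation test (adjusted p of 0.27 to 0.86).

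Slc8a1, on chromosome 17 at 81680534 to 82045891, encodes the sodium-calcium exchanger NCX1, the main route of calcium out of the cell. It was at 1534, 4993 and 3767 CPM in the P1 controls and 9358, 3527, 2824 and 8093 CPM in the P1 Casp2-depleted libraries. At P7 it was at 7396, 6657, 4222 and 3792 CPM in controls and 8146, 7038, 3944 and 3016 CPM in Casp2-depleted libraries. At P14 it was at 1934, 818 and 818 CPM in controls and 807, 608 and 351 CPM in Casp2-depleted libraries. Every P14 library was below every P7 library, and only 1 of the 7 P1 libraries, control replicate 2, was below the highest P14 library. The fall was 6.60-fold from P7 to P14 (log2 fold change -2.72, SE 0.26, adjusted p = 1.8e-21) and 5.40-fold from P1 to P14 (-2.43, SE 0.26, adjusted p = 1.3e-16). Each of these calls was kept in 12 of 14 alternative fits. Both were lost with limma-voom under either scaling. Camk2d encodes the kinase that phosphorylates the ryanodine receptor and phospholamban. It was at 94.8 to 712 CPM at P1, 230 to 1275 CPM at P7 and 87.4 to 209 CPM at P14, with no overlap between P7 and P14 and a log2 fold change of -1.86 (SE 0.39, adjusted p = 0.00010).

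**Figure D2:**
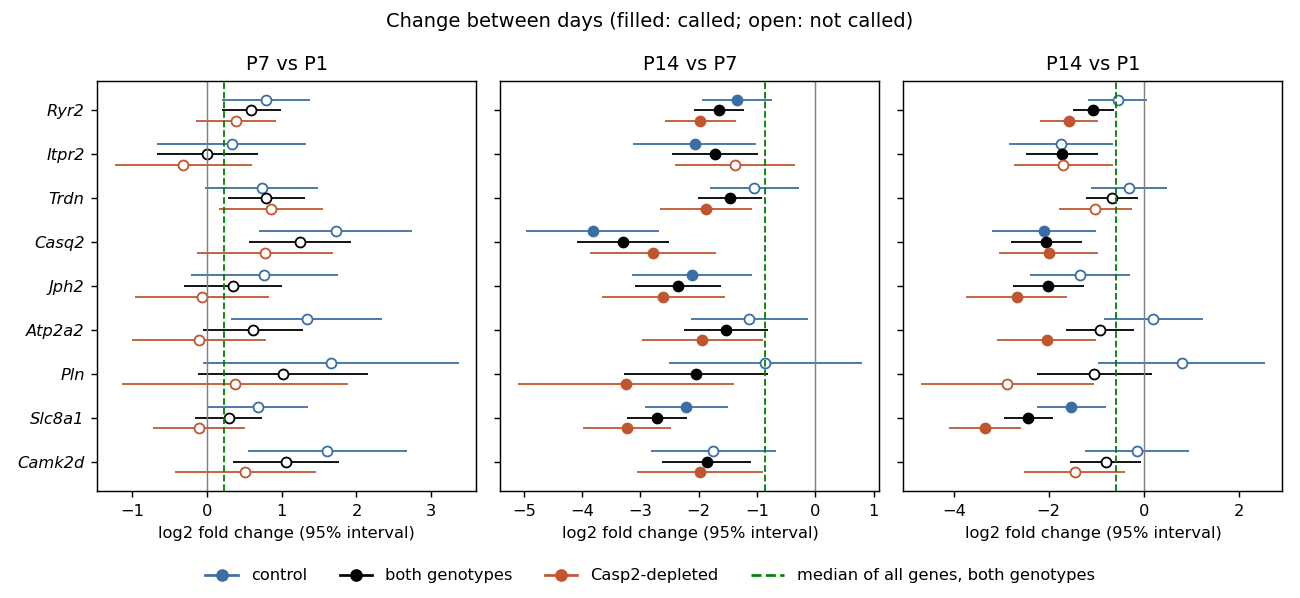
Log2 fold changes between days with 95% intervals for the 9 tested genes, in control (blue), Casp2-depleted (rust) and both genotypes together (black). Filled points were called and open points were not, and the green dashed line is the median of all genes with both genotypes together. All 9 filled black points in the P14 against P7 panel lie left of the dashed line at -0.87.

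Within control libraries alone, 5 of the 9 were called lower at P14 than at P7, Casq2 (-3.82, SE 0.58), Slc8a1 (-2.21, SE 0.36), Jph2 (-2.11, SE 0.53), Itpr2 (-2.07, SE 0.54) and Ryr2 (-1.35, SE 0.31), where 1.87% of all genes were called lower. Leaving out P7 control replicate 2, P14 control replicate 2 or P14 control replicate 4 each left 2 calls, those of Casq2 and Slc8a1. Within Casp2-depleted libraries 8 were called lower, all but Itpr2 (-1.38, SE 0.53, adjusted p = 0.17), against 2.82% of all genes. The largest of these were Pln (-3.25, SE 0.95, adjusted p = 0.025) and Slc8a1 (-3.23, SE 0.38, adjusted p = 1.0e-13). Pln had 47, 12 and 6 reads in the P14 Casp2-depleted libraries. Its call was kept in 5 of 14 alternative fits and 14 of 21 omissions of a library, that of Slc8a1 in 12 and 21. The 8 became 5 with the replicate block, and also 5 without Casp2-depleted replicate 1 of P1, replicate 1 of P7, or replicate 3 or 4 of P14. The counts of 5 and 8 both became 0 with limma-voom under either scaling, 0 and 1 with all 24 libraries, and 0 and 2 with a term for reads on no gene. The difference between the genotypes in this fall was tested as an interaction, and none of the 9 was called by edgeR, DESeq2 or limma-voom, where 0.0245% of all genes were called by edgeR in either direction. The interaction values ran from -2.40 for Pln (adjusted p = 0.50) to 1.04 for Casq2 (adjusted p = 0.71), and 2 of the 9 had an unadjusted p below 0.05.

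From P1 to P14, with both genotypes together, 5 of the 9 were called lower, Slc8a1, Casq2 (-2.05, SE 0.38, adjusted p = 2.3e-05), Jph2, Itpr2 and Ryr2, against 4.00% of all genes. The other 4, Pln, Atp2a2, Camk2d and Trdn, had log2 fold changes of -1.04 to -0.66 with adjusted p values of 0.12 to 0.36. The median of the 9 was -1.06 and that of all genes was -0.57. None of the 9 had every P14 library below every P1 library, where 0.447% of all genes did. In controls alone Casq2 (-2.10, adjusted p = 0.04995) and Slc8a1 (-1.53, adjusted p = 0.016) were called, against 0.314% of all genes, and with the replicate block 1 call was left. The call of Casq2 was lost on leaving out any 1 of 12 libraries (P1 control replicates 3 and 4, P1 Casp2-depleted replicate 1, the 4 P7 controls, P7 Casp2-depleted replicates 2, 3 and 4, P14 Casp2-depleted replicate 3 and P14 control replicate 4), with values of -2.61 to -1.55 over all omissions. That of Slc8a1 was lost without P1 control replicate 3 or 4 or P14 control replicate 2 or 4, with values of -2.07 to -1.15. In Casp2-depleted libraries Jph2, Ryr2, Casq2, Atp2a2 and Slc8a1 were called, against 1.92% of all genes, a count that was 3 with the replicate block and 3 without Casp2-depleted replicate 4 of P1 or of P14. All comparisons with P14 share the same P14 libraries.

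From P1 to P7 none of the 9 was called by edgeR, DESeq2 or limma-voom, in control, Casp2-depleted or both genotypes together. In edgeR's test 5 had an unadjusted p below 0.05 in controls, 1 in Casp2-depleted libraries and 4 in both together. All 9 log2 fold changes were above 0 with both genotypes together, from 0.01 for Itpr2 to 1.25 for Casq2 (SE 0.35, 95% interval 0.57 to 1.93, adjusted p = 0.15), with a median of 0.62 against 0.22 for all genes, of which 0.0933% were called higher. Without TMM the median was 0.28 and 2 of the 9 were below 0. In controls, every P7 library was above every P1 library for Casq2, Atp2a2 and Trdn, 3 of the 9, where 6.89% of all genes showed this. Casq2 was called (1.72, SE 0.35, edgeR adjusted p = 0.00089) once P1 Casp2-depleted replicate 4 was left out, the P1 library with the highest Casq2 level.

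Since a ratio of 2 genes within a library is free of the scaling, Casq2, the store's buffer, was also set against Ryr2, its release channel. There were 22.1, 33.5 and 29.6 Casq2 reads per 1000 Ryr2 reads in the P1 controls and 30.4, 5.35, 44.0 and 54.8 in the P1 Casp2-depleted libraries. At P7 there were 43.5, 49.4, 77.1 and 62.1 in controls and 55.6, 35.6, 52.4 and 60.5 in Casp2-depleted libraries. At P14 there were 9.31, 28.4 and 0.980 in controls and 25.5, 45.6 and 16.5 in Casp2-depleted libraries. The ratio was thus highest at P7, and 5 of the 6 P14 libraries were below all 8 P7 libraries. The mean log2 ratio fell by 2.01 from P7 to P14 (two-sided exact permutation test, p = 0.0020, adjusted p = 0.024 over 12 ratio tests). It rose by 1.02 from P1 to P7 (exact permutation p = 0.0062, adjusted p = 0.037). The fall kept an adjusted p below 0.05 with each library left out in turn, although without P14 control replicate 4, which had 7 Casq2 reads, it was -1.27. The rise had adjusted p values of 0.052 to 0.076 without any 1 of 10 libraries. Within control libraries the fall was -3.11 and within Casp2-depleted libraries -0.90, where the exact permutation test of 3 against 4 libraries cannot give a p below 0.0571. P14 did not differ from P1 beyond the spread (-0.99, exact permutation p = 0.30, adjusted p = 0.45).

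Itpr2 had medians of 51.6, 30.6 and 36.5 reads per 1000 Ryr2 reads at P1, P7 and P14. The difference from P1 to P7 was -0.57 on the log2 scale (exact permutation p = 0.019, adjusted p = 0.075) and did not pass the threshold, nor did the other 2 differences. Pln had medians of 167, 223 and 93.1 reads per 1000 Atp2a2 reads, and none of its 3 differences passed, with adjusted p values of 0.24 to 0.86 by exact permutation tests.

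**Figure D3:**
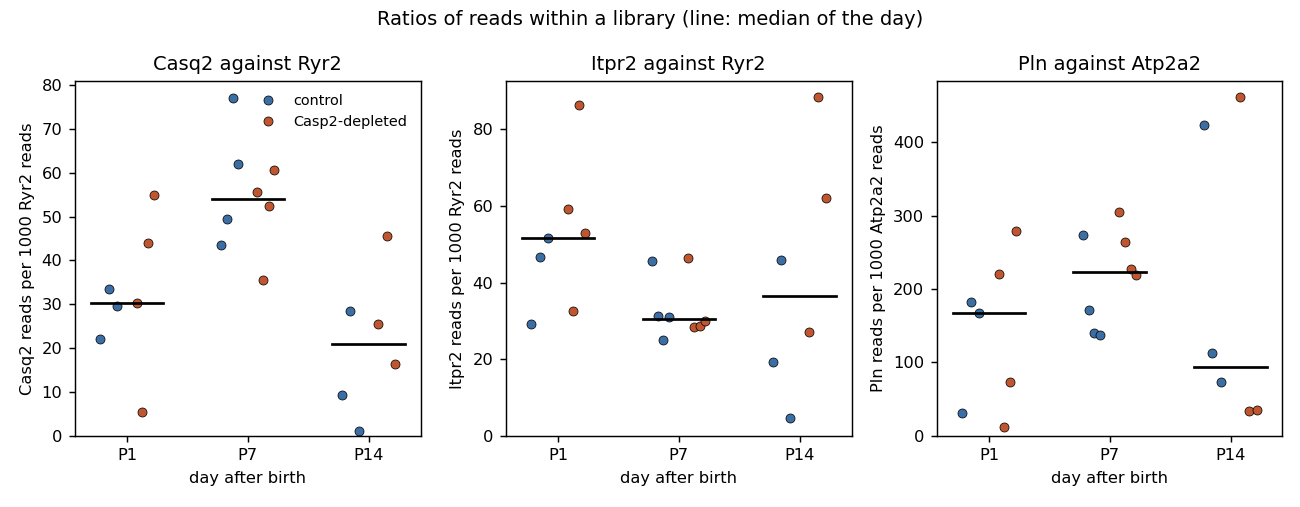
Reads of one gene per 1000 reads of another within each library, by day (blue, control; rust, Casp2-depleted; line, median of the day). The Casq2 to Ryr2 ratio has medians of 30.4, 54.0 and 21.01 at P1, P7 and P14, while the Pln to Atp2a2 ratio spreads from 33.2 to 461 at P14.

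The 9 genes also moved with the share of reads on no gene. Over the 21 libraries their log2 CPM had a Pearson correlation with that share of -0.92 (Camk2d) to -0.73 (Itpr2), given as a description, since the points share library, day and depth. P14 libraries had the highest shares, so day and share largely run together. At like shares, P7 Casp2-depleted replicate 4 (64.3%) had 622 CPM of Casq2, 3016 CPM of Slc8a1 and 10268 CPM of Ryr2, and P14 control replicate 1 (63.7%) had 113, 1934 and 12108 CPM. The 3 P1 libraries with 68.2, 70.6 and 73.9% on no gene had 3527, 2824 and 1534 CPM of Slc8a1, where the 5 P14 libraries at 72.2 to 76.1% had 351 to 818 CPM. For Casq2 the same 3 P1 libraries had 52.5, 246 and 139 CPM and the 5 P14 libraries 5.30 to 150 CPM, which overlap. With the share as a term in the fit, Casq2 (-2.14, SE 0.53, adjusted p = 0.028) and Slc8a1 (-1.32, SE 0.21, adjusted p = 3.7e-07) were still called lower at P14 than at P7, against 1.08% of all genes, and the other 7 were not, Pln (0.96) and Camk2d (0.32) having turned above 0.

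**Figure D4:**
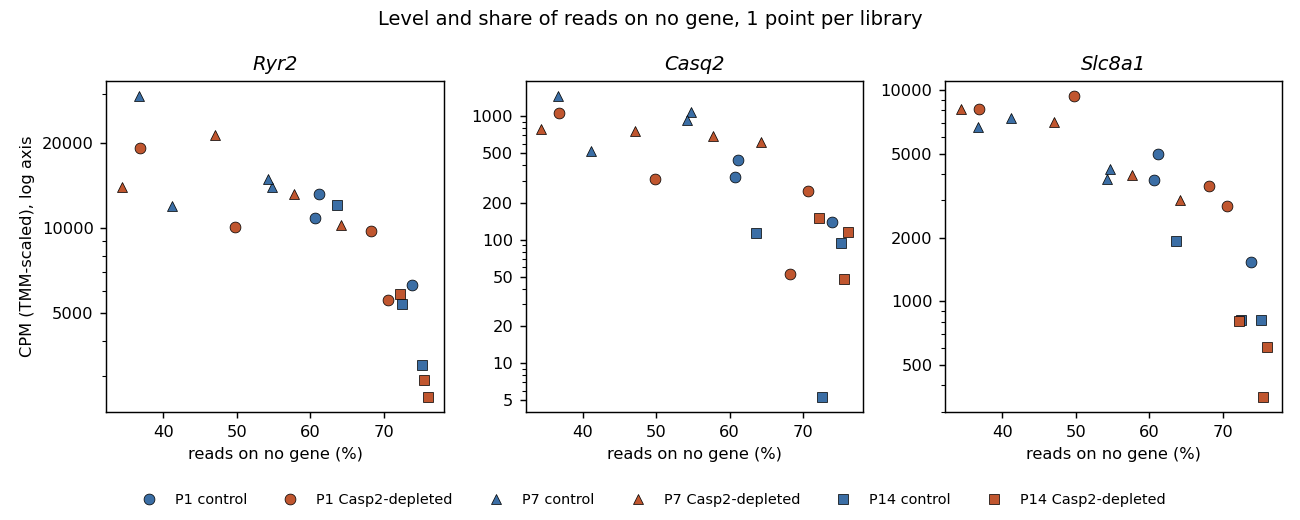
CPM on a log axis against the percentage of uniquely placed reads on no gene, 1 point per library (circles, P1; triangles, P7; squares, P14; blue, control; rust, Casp2-depleted). The squares gather at 63.7 to 76.1% and lie below the circles at like shares for Slc8a1 but not for Casq2 or Ryr2.

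Casp2 depletion was the study's question, and no member gene was called between the genotypes on any day, by edgeR, DESeq2 or limma-voom. In edgeR's test 1 of the 9 had an unadjusted p below 0.05 at P1, 0 at P7 and 4 at P14. At P7 the log2 fold changes of Casp2-depleted against control were -0.54 (Atp2a2, 95% interval -1.44 to 0.37) to 0.07 (Trdn, -0.62 to 0.75), and Ryr2 was at -0.26 (-0.79 to 0.28). At P1 they were -0.05 (Trdn) to 1.24 (Pln, SE 0.86). At P14 they were -2.44 (Pln, SE 0.94, adjusted p = 0.36) to 0.56 (Casq2, SE 0.54, adjusted p = 0.79), and 7 of the 9 were below 0. The 4 at P14 were Pln, Atp2a2 (-1.34, SE 0.54, adjusted p = 0.38), Slc8a1 (-1.02, 95% interval -1.73 to -0.30, adjusted p = 0.35) and Ryr2 (-0.88, -1.51 to -0.26, adjusted p = 0.35). For 3 of the 9, Jph2, Camk2d and Slc8a1, every P14 Casp2-depleted library was below every P14 control library, where the groups did not overlap for 5.15% of all genes, and at P1 none of the 9 was separated, against 3.40% of all genes. Ryr2 was called at P14 (-1.36, SE 0.36, edgeR adjusted p = 0.027) when Casp2-depleted replicate 2 was left out. Of all genes, 0.167% were called at P14 in either direction, and 0.0147% over the mean of the 3 days, where the 9 genes ran from -0.41 to 0.21.

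A list of 57 other genes of calcium handling, in 7 groups, gave 53 that could be tested. From P7 to P14 with both genotypes together 14 were called lower and none higher by edgeR, with a median log2 fold change of -1.51 over the 53, where 8.66% of all genes and 26.4% of those with a mean of at least 100 reads were called lower. In this paragraph a gene that fell is one that edgeR called lower. In the release complex and luminal proteins 4 of 13 fell, among them Asph, Srl (sarcalumenin, which binds calcium in the store's lumen) and Calr (calreticulin). Of the kinases, phosphatases and anchors 5 of 14 fell. Prkar1a, a regulatory subunit of protein kinase A, had 1903 reads at P7 and 7 at P14 (-7.43, SE 1.03, adjusted p = 1.6e-10), and Ppp1ca, a catalytic subunit of protein phosphatase 1, had 115 reads at P7 and 0 at P14, at least 26.5-fold lower against a floor of 3 reads over the group. The other 3 were Camk2g, Akap6 and Akap7. Of the junction and tubule organizers 3 of 7 fell, Cav3 (caveolin 3, -6.12, SE 1.47, adjusted p = 0.0012), Cmya5 and Ank2. Dhrs7c was the 1 of 4 uptake regulators that fell (-3.92, SE 1.08, adjusted p = 0.0069) and Atp2b1, a calcium pump of the surface membrane, the 1 of 7 extrusion genes. The median log2 fold change of these 7 was 0.16. With both genotypes together none of the 4 other release channel genes and none of the 4 store-operated entry genes was called by edgeR or DESeq2, while limma-voom with TMM, which called 19 of the 53 lower, called Itpr1, a release channel, and Orai1 and Orai2, channels of store-operated entry. In controls DESeq2 and limma-voom with TMM each called Orai1 lower. In controls alone 5 fell, against 1.87% of all genes, Prkar1a (-6.99, SE 1.42), Camk2g (-3.74, SE 1.09), Cmya5 (-3.37, SE 0.90), Atp2b1 (-2.55, SE 0.66) and Srl (-1.91, SE 0.56). In Casp2-depleted libraries 6 fell, against 2.82% of all genes, Prkar1a (-7.86, SE 1.504), Dhrs7c (-5.43, SE 1.66), Asph (-2.54, SE 0.74), Srl (-2.50, SE 0.57), Atp2b1 (-2.42, SE 0.65) and Ank2. For the same step limma-voom with quantile scaling called Bin1 higher in controls and Ryr3 higher in Casp2-depleted libraries. From P1 to P14 9 of the 53 fell with both genotypes together, against 4.00% of all genes, among them Ppp1ca (188 reads at P1 and 0 at P14, at least 48.0-fold lower against the same floor), Cav3 (-6.22, SE 1.49), Prkar1a (-4.65, SE 0.94), Camk2g (-2.72, SE 0.75), Cmya5, Atp2b1, Camk2a and Srl. DESeq2 also called Orai1 lower there. In Casp2-depleted libraries 4 fell from P1 to P14, against 1.92% of all genes, Prkar1a (-6.58, SE 1.44), Srl (-2.38, SE 0.57), Camk2a (-1.74, SE 0.49) and Ank2 (-1.48, SE 0.45). In controls edgeR called none from P1 to P14, where 10 had an unadjusted p below 0.05, DESeq2 and limma-voom with TMM each called Cav3 and Orai1 lower, and limma-voom with quantile scaling called Bin1 higher. None of the 53 was called by edgeR between P1 and P7 with both genotypes together, where 10 had an unadjusted p below 0.05, or between the genotypes at P14, where also 10 did. In the first of these DESeq2 called none and limma-voom with quantile scaling called 1. In the second DESeq2 called Atp2b3 and Orai1 higher in Casp2-depleted libraries, and limma-voom with quantile scaling called Bin1 lower. The genes called by these other tools alone are named after their values were seen.

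The 9 genes varied together from library to library. Pearson correlations of their log2 CPM over the 21 libraries ran from 0.48 (Casq2 with Atp2a2) to 0.95 over the 36 pairs, with a median of 0.75, a description that takes in the shared day, depth and share of reads on no gene. There were 10521 genes with a mean of at least 20 reads, the 9 included. Outside the 9, those most like Ryr2 were Ttc3 (r = 0.96), Nexn (0.96) and Fgf13 (0.95). Those most like Slc8a1 were Ctnna3 (0.96), Trim55 (0.95) and Actb (0.95), and those most like Trdn were Srek1 (0.96), Ppp1r12a (0.95) and Cc2d2a (0.95).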

How the data were processed

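RNA was measured in 24 libraries of PCM1-sorted cardiomyocyte nuclei. Per the labels and the study's methods, the authors trimmed reads with cutadapt 4.0, aligned them with STAR 2.6.1e to GRCm39 and made the deposited counts with HTSeq 2.0.3 over whole genes of Ensembl release 108, as raw whole reads per gene. Strand settings and molecular identifiers are not given in the sources used here, and intervals and zero limits cover counting error only.

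The counts of the 21 libraries the study kept were fitted with edgeR 4.0.16 in R 4.3.3 (TMM, 6 group means, robust quasi-likelihood F-test, 15 residual degrees of freedom) on genes with at least 10 reads in all and a read in at least 3 libraries. The study used the limma package, and limma-voom was run here as an alternative. P-values were adjusted by the Benjamini-Hochberg method over all genes, and a SE is the log2 fold change over the root of F. Ratios used 0.5 reads added to each count and two-sided exact permutation tests. The biological coefficient of variation was 1.50, so that only large changes pass. Replicates are pools of hearts, so p-values measure the spread between pools, and within groups all 36 pairs differed by more than sampling noise (chi-square per degree of freedom 17.8 to 165). File names mark replicate numbers as batches, and same-numbered libraries of the 2 genotypes had correlated deviations of -0.06 to 0.19. Reads on no gene, 34.3 to 76.1% of those uniquely placed, stayed out of library sizes. Promoters were read from GRCm39 at GENCODE vM39 starts. The alternatives are DESeq2 1.42.0, limma-voom (limma 3.58.1), other filters and scalings, and libraries left out. The genes and gene lists were chosen with earlier results of these data known. All 10 genes are named. Of the other calcium handling genes, those called by edgeR are named, up to the 5 with the largest change per comparison and direction with values. One item of that list is not reported here. For the 3 members with the highest mean level, the 3 genes most like each are named. The steps were tested on simulated data.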

Additional observations from a re-analysis of the deposited data

Results flagged for a closer look

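The flagged values come from the 3 libraries the study left out, read as CPM of reads on genes without TMM, and each is above every control library of its day that was kept. P1 control replicate 1, with 9.21% of its reads on no gene, had 12919 CPM of Ryr2 (highest kept control 12221), 571 of Casq2 (410), 1593 of Atp2a2 (394), 673 of Pln (71.9), 2.11 of Sln (0, from 7 reads here), 690 of Jph2 (657), 12175 of Slc8a1 (4605), 777 of Itpr2 (569) and 845 of Camk2d (316). The paper left this library out for signs of cytoplasmic contamination. Mitochondrially encoded genes held 1.88% of its reads on genes, against 0.0701 to 0.588% in the 21 kept libraries. The part of this in its values was not tested. P14 control replicate 3, with 2049 detected genes, had 28292 CPM of Ryr2 (highest kept control 13435), 399 of Casq2 (125), 1893 of Atp2a2 (641), 3400 of Trdn (2083) and 960 of Itpr2 (257). P14 Casp2-depleted replicate 1, with 4285 detected genes, had 735 CPM of Atp2a2 (641) and 3068 of Trdn (2083). Other values of these libraries lay below every kept control of their day. P1 control replicate 1 had 1470 CPM of Trdn (lowest kept control 1597). P14 control replicate 3 had 0 of Camk2d (225), 21.6 of Jph2 (167) and 16.0 of Pln (21.4). P14 Casp2-depleted replicate 1 had 6.94 of Camk2d (225) and 155 of Jph2 (167). Against the kept libraries of its own group, its Jph2 lay within their range of 122 to 157 CPM. Its Camk2d was below them (lowest 128 CPM). Its Ryr2, at 13388 CPM, and Slc8a1, at 2057 CPM, were above them (highest 7141 and 983 CPM), as were its Atp2a2 and Trdn. Separately, in the 3 groups that kept 4 libraries (P1 Casp2-depleted and both P7 groups), no library was set apart from its group by Dixon's criterion for any of the 9 genes. The P14 groups, the P1 controls and the left-out libraries were not examined in this way.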

How the results depend on the processing

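Genes called in 6 comparisons changed in number with the processing, here in the order P14 against P7 in controls (5), Casp2-depleted (8) and both (9), then P14 against P1 in controls (2), Casp2-depleted (5) and both (5). limma-voom with TMM gave 0, 0, 5, 0, 0 and 0, and with quantile scaling 0, 0, 3, 0, 0 and 1, with Ryr2 reversed from P7 to P14 (0.66 in controls, 0.31 in both). All 24 libraries gave 0, 1, 4, 0, 1 and 2. A term for reads on no gene gave 0, 2, 2, 1, 1 and 2, with Camk2d reversed (0.30 in Casp2-depleted, 0.32 in both) and Pln (0.96 in both). Added after seeing the data, scaling without TMM gave 2, 4, 3, 0, 3 and 4, leaving out the 3 P14 libraries under 10000 detected genes 2, 6, 9, 0, 2 and 3, and dropping the robust option moved P14 against P1 in controls to 1. DESeq2 gave 5 for P14 against P7 in Casp2-depleted and 0 for P14 against P1 in controls, and filterByExpr the same 5 and 0. Only the groups compared gave 3, 0 and 2 for P14 against P7 in controls and P14 against P1 in controls and in Casp2-depleted. No filter and thinning each gave 1 for P14 against P1 in controls. The replicate block gave 5 for P14 against P7 in Casp2-depleted, and 1 and 3 for P14 against P1 in controls and Casp2-depleted, and kept the other counts within 1.5 times. The cause of these changes was not tested.

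Leaving out 1 library gave 2 to 6, 5 to 8, 8 to 9, 0 to 3, 3 to 7 and 4 to 5 in the same order, 0 to 1 for P7 against P1 in both, and 0 to 1 for Casp2-depleted against control at P14. Of the ratios, Casq2 to Ryr2 ran from 0.64 to 1.19 for P7 against P1, Itpr2 to Ryr2 from -0.69 to -0.43 for P7 against P1 and from -0.48 to 0.37 for P14 against P7, and Pln to Atp2a2 from -0.18 to 0.64 for P14 against P1. Casq2 to Ryr2 was 1.01 and -3.11 in controls alone and 1.00 and -0.90 in Casp2-depleted alone, for P7 against P1 and P14 against P7, tests whose smallest possible p, 0.0286 for 4 against 4 libraries and 0.0571 for 3 against 4, cannot pass once adjusted, and reversed for P14 against P1 in Casp2-depleted (0.10). In Casp2-depleted alone Itpr2 to Ryr2 was 0.70 for P14 against P7 and Pln to Atp2a2 -0.051 for P14 against P1. With all 24 libraries Pln to Atp2a2 was -0.62 for P14 against P1, and Itpr2 to Ryr2 passed for P7 against P1 (-0.61, adjusted p = 0.042).

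A count of 0 allows up to 1.03 to 3.36 CPM in these libraries, which limits Sln and Casp2 most.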
